A study of Mus musculus with 8 samples.

Results

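Ventricular working myocytes sorted from adult male mouse hearts were described on their own, as 4 of the 8 arrays of the series. These 4 arrays are the ones titled ventricular myocyte 1 to 4, and the other 4 hold Purkinje cells, the fast-conducting myocytes that carry the impulse into the ventricular wall. Both cell types came from mice that carried Cntn2-EGFP together with a-MHC-Cre and floxed-tdTomato. Their background mixed CD1, C57/B6 and 129S1. All 8 samples therefore carry a Cntn2 reporter, a Cre recombinase driven by the alpha myosin heavy chain (Myh6) promoter and the floxed tdTomato that this Cre switches on. The design names 4 separate hearts, each giving 1 ventricular and 1 Purkinje sample, which were freed by enzymatic digestion during Langendorff perfusion and sorted by FACS. The labels do not give the gates, the age in weeks or the number of cells. The values are linear MAS5 signals, and precision is limited by the small number of arrays.

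A ventricular working myocyte shortens when calcium enters through L-type channels, triggers release from the sarcoplasmic reticulum and binds troponin on the thin filament, which lets myosin heads of the thick filament pull. Calcium is then pumped back by SERCA2, under the brake of phospholamban. The ATP for this cycle comes mostly from mitochondrial oxidation of fatty acids, and creatine kinase carries it to the filaments. In the mouse the adult ventricle uses the alpha form of the myosin heavy chain and a fast transient outward potassium current that shortens the action potential.

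Each gene took the value of 1 probe set, the one whose mean log2 signal on the 4 ventricular arrays was highest, and its rank was that of its median signal among 18193 genes. Probe sets differ in how strongly they hybridise, so a rank orders signals and not numbers of transcripts. A silent-gene level was set on each array at the 95th percentile of 39 olfactory receptor genes, a class that heart cells are not known to use. It lay at 31.2, 22.1, 26.2 and 28.8 on ventricular arrays 1 to 4. On all 4 arrays 9678 genes, 53.2%, were above it, 3149 were above it on 1 to 3 arrays and 5366 on none. None of the 39 olfactory receptor genes was above it on all 4 arrays.

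The 4 ventricular arrays resembled each other, with arrays 3 and 4 the closest pair. Over the 9678 genes above the silent-gene level, which are not independent replicates, Pearson correlations of log2 signals ran from 0.944 (arrays 1 and 3) to 0.981 (arrays 3 and 4). In the top 100 of every array there were 85 genes, and 16 were in the top 25 of every array. Among the 1000 genes of highest signal the median coefficient of variation was 11.7%, the median ratio of the highest to the lowest array was 1.3, and 34 genes exceeded 2-fold. The Gapdh 3′ to 5′ probe ratio, a sign of RNA quality, was 1.23 and 1.20 on arrays 1 and 2 and 1.51 on both arrays 3 and 4. On Purkinje arrays 1 to 4 it was 1.24, 1.28, 1.64 and 1.72, higher than on the same-numbered ventricular array in all 4 pairs. In 21 of the 25 leading genes arrays 3 and 4 both read higher than arrays 1 and 2, against 460 of the first 1000 genes and 2431 of the 9678. Ventricular array 1 stood apart in another way: 14 of 15 endothelial markers were highest on it. The part of these array differences in the results below was not tested, except where values without an array are given.

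The cells carried the markers of their label, but these markers do not tell them from Purkinje cells by presence alone. The summed signal of the 5 was 27092, 28572, 32223 and 32936 on the ventricular arrays and 26538, 27679, 25300.3 and 26133 on the Purkinje arrays. All 5 ventricular myocyte markers were above the silent-gene level on all 4 arrays, and they ranked between 6 and 1309 of 18193 genes. Myh6, the alpha myosin heavy chain, read 9354, 10234, 10496 and 11339 on arrays 1 to 4 and ranked 9. Myl2, the regulatory light chain of ventricular myosin, read 9894, 10152, 12110.2 and 11803 and ranked 6. The signals of both genes were close on all 4 arrays, with the lowest on array 1. Gja1, which encodes connexin 43 of the working myocardium, was at 5562, 5697, 6544 and 6723 and ranked 100. Kcnip2, the KChIP2 subunit of the transient outward channel, gave 1156, 1089, 2122 and 2155. Scn4b, a sodium channel beta subunit, gave 1127, 1400, 950.2 and 917. Kcnip2 was higher on arrays 3 and 4, and Scn4b was higher on arrays 1 and 2. The 3 measured Y chromosome genes, Eif2s3y, Kdm5d and Uty, were above the silent-gene level on all 4 arrays, with medians of 851, 284 and 116. The male label held on these arrays.

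The promoter windows of Myh6 and of Actc1, the cardiac alpha-actin, show what lies at the start of a pair of leading contractile genes, the first of which also drives the Cre in these cells. Both are from RefSeq on GRCm38.p6, cover 250 bases before and 50 after the annotated start, and are on the minus strand at chr14:54966558-54966857 for Myh6 and chr2:114052826-114053125 for Actc1. Capitals mark TATAAA, the letters of a TATA box.
Myh6: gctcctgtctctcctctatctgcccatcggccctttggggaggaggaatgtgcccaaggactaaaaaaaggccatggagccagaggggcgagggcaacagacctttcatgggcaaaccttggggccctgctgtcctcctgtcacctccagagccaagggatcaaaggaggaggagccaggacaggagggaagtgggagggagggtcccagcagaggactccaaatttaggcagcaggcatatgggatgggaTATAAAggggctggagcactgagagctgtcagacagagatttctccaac
Actc1: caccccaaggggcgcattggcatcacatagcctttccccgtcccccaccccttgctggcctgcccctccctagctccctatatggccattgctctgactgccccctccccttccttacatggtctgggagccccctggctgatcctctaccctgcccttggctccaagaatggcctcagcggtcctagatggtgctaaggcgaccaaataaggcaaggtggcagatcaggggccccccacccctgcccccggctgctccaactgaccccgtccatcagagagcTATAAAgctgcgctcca
The match begins at base 252 of the Myh6 window and base 284 of the Actc1 window, where base 251 is the annotated start. Both matches therefore begin after the annotated start. Searched on both strands, TATAAA was in 6 of 22 windows (27.3%) of the 18 genes of the top 25 that had one, those of AY036118, Actc1, Hnrnpab, Myh6, Myl2 and Pln. It was in 29 of 213 windows (13.6%) of the top 200 genes and in 4473 of 32851 windows (13.6%) overall. CTAAAAATA, the letters of a MEF2 element, was in 0 windows of the top 25, in 1 (0.469%) of the top 200 and in 170 (0.517%) overall. TCAAGGTCA, an estrogen-related receptor element, was in 0 windows of the top 25, in 2 (0.939%) of the top 200 and in 139 (0.423%) overall. None of the motifs contains another, and a match describes letters only.

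The 25 genes of highest signal were led by a respiratory chain gene of the mitochondrial genome, followed by sarcomere, fatty acid, ATP synthase and calcium cycling genes. ND5, a complex I subunit, read 13683, 13007, 13599 and 15458 on arrays 1 to 4, and it is the one mitochondrial genome gene that was profiled. Tnnt2, cardiac troponin T, read 10975, 11992, 13658 and 13396, and Myl3, the ventricular essential light chain, 10543, 11333, 13753 and 13664. Fabp3, the heart fatty acid carrier of the cytosol, gave 11736, 11829.5, 13165 and 14178. All 3 genes were lowest on array 1 and highest on array 3 or 4. Sarcomere genes in this group were Tnnt2, Myl3, Myl2, Myh6, Actc1 and Tpm1, and calcium cycling was represented by Atp2a2 and Pln. Mitochondrial genes were ND5, Atp5a1, Cox6c, Ndufc1, Slc25a4, Atp5h, Nnt and Ckmt2. The small heat shock genes Cryab and Hspb7, the oxygen store Mb, the malate dehydrogenase Mdh1, the ribosomal gene Rps29 and the nuclear RNA Malat1 completed the named functions. Hnrnpab, an RNA-binding protein gene, ranked 5, and its 7 probe sets spread from a median of 12093 down to 73.0. Mb had a second probe set at 37.1, so such ranks rest on a single probe set.

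**Figure D1:**
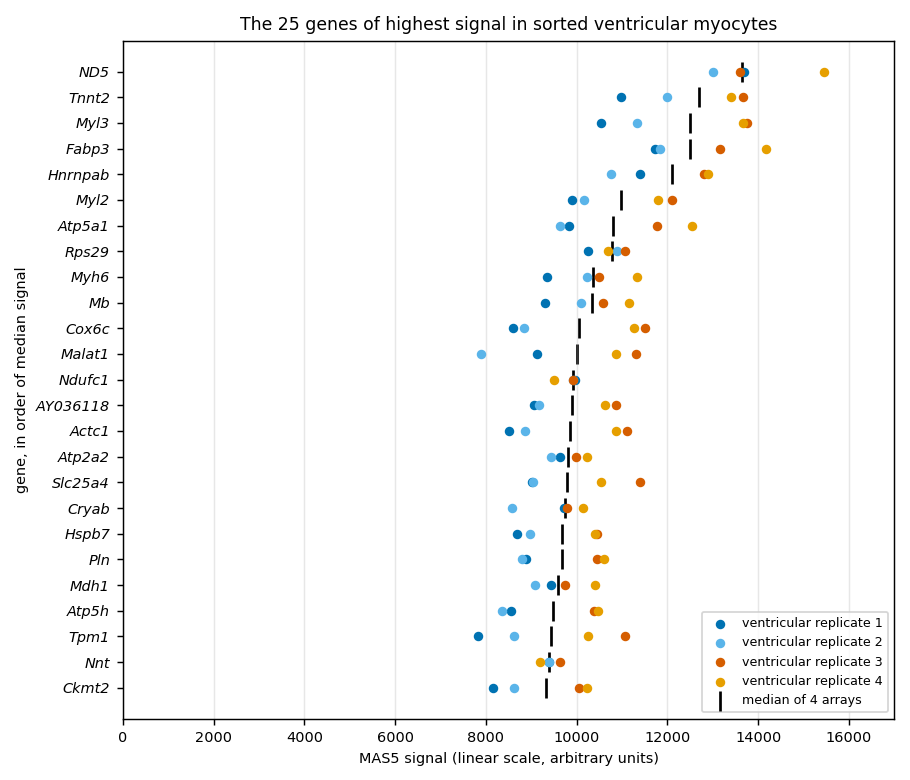
MAS5 signal on a linear axis in arbitrary units for the 25 genes of highest median ventricular signal, with 1 point per ventricular array and a bar at the median of the 4 arrays. ND5 leads at a median of 13641, Ckmt2 closes at 9333, and in 21 genes the points of replicates 3 and 4 both lie to the right of those of replicates 1 and 2.

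Among the 100 genes of highest signal, 76 were in one of the 24 lists of contractile, metabolic and regulatory genes. Respiratory chain and ATP synthase lists held 35 of the 100, fatty acid and citrate cycle lists 14, and sarcomere lists 13. Ribosomal protein symbols made up 3. Ndufc1 of complex I gave 9959.8, 9930.3, 9912 and 9495 on arrays 1 to 4, and Atp5a1, the alpha subunit of ATP synthase, gave 9835, 9633, 11779 and 12532. Ndufc1 was lowest on array 4, whereas Atp5a1 was highest there.

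Sarcomere genes were near the top of the profile with few members silent. The thick filament list had 6 of 7 members above the silent-gene level on all 4 arrays and a median percentile of 99.3, where the median over all genes is by construction the middle of the scale. Mybpc3, the cardiac myosin binding protein C, read 4715, 4911, 6111 and 6145. The thin filament list had 10 of 11 above that level and a median percentile of 99.1. Actc1 read 8519.7, 8853, 11119.7 and 10876, and Tpm1, the alpha tropomyosin, 7834, 8616, 11059 and 10253. Tnni3, cardiac troponin I, read 7726, 7802, 10283 and 9838 and Tnnc1, the calcium sensor of the filament, 7514, 7845, 10072 and 9509. All 5 of these genes were higher on arrays 3 and 4 than on arrays 1 and 2. Titin, Z-disc and M-band genes had 20 of 22 members above the level at a median percentile of 98.4. Ttn, the giant spring of the sarcomere, read 5896, 6314, 8908 and 8356, and Myom2, which cross-links thick filaments at the M-band, 6707, 7078, 7667 and 8441. Actn2, the Z-disc actinin, ranked 252 with 3535, 4021, 3800.3 and 4511.

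Calcium release and uptake genes had 15 of 17 members above the silent-gene level on all 4 arrays and a median percentile of 96.8. Atp2a2, the SERCA2 pump, read 9642, 9441, 9988 and 10229 on arrays 1 to 4. Pln, which encodes phospholamban, read 8889, 8792, 10449 and 10612. Atp2a2 had a coefficient of variation of 3.58% and Pln one of 10.1%. Casq2, the calcium store protein, gave 4752, 5348, 5927 and 6021. Ryr2, the release channel, gave 3858, 4771, 5812 and 6585 and was spread more widely, from its lowest value on array 1 to its highest on array 4. Slc8a1, the sodium-calcium exchanger, ranked 1139 with 923, 1204, 1466 and 1167. Jph2, which ties the surface membrane to the sarcoplasmic reticulum, ranked 1031 with 1370, 1438, 1240.3 and 1149.

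Mitochondrial energy genes were high in nearly every member. Every member analysed of complex III (10), ATP synthase (16), fatty acid uptake and oxidation (27), and pyruvate dehydrogenase and citrate cycle (24) was above the silent-gene level on all 4 arrays. Median percentiles were 99.7 for complex IV, 99.6 for ATP synthase, 99.3 for complex I, 99.2 for complex III and 98.7 for fatty acids, with the citrate cycle list between the last named pair. Complex I had 32 of 33 members above that level and complex IV 8 of 9. Coefficients of variation had list medians of 6.78% for ATP synthase, 7.53% for complex IV and 8.16% for complex I. The median was 11.7% over the 1000 genes of highest signal and 18.3% over all genes above the silent-gene level. Cox6c, a complex IV subunit, read 8589, 8849, 11498 and 11263, and Uqcrb of complex III read 7672, 7279, 9316 and 9711. Both were higher on arrays 3 and 4. Cycs, the electron carrier cytochrome c, read 8042, 8105, 7620.1 and 7556 and went the other way, higher on arrays 1 and 2.

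Fuel genes covered fatty acids, glucose and lactate. Lpl, the lipase that frees fatty acids from lipoproteins, read 7344, 7714, 8312 and 8243. Acadvl, which starts the oxidation of very long chains, read 5476, 6643, 8687 and 8746, with its lowest value on array 1. Etfa, which passes electrons from this pathway to the respiratory chain, gave 6507, 7406, 9063 and 8787. Glycolysis and glucose uptake had 16 of 16 members above the silent-gene level and a median percentile of 98.5, with Ldhb at 7178, 7944, 9508 and 9052 and Aldoa, the muscle aldolase, at 7223, 7979, 8699 and 9099. These genes too were lowest on array 1. Glycogen genes lay lower, with 14 of 16 above the level and a median percentile of 83.7. Creatine and adenylate energy transfer had 12 of 13 above it, and Ckmt2, the mitochondrial creatine kinase, read 8147, 8621, 10044 and 10231. Oxygen handling and antioxidant enzymes had 14 of 14 above it, with Mb at 9307, 10095, 10588 and 11149.

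**Figure D2:**
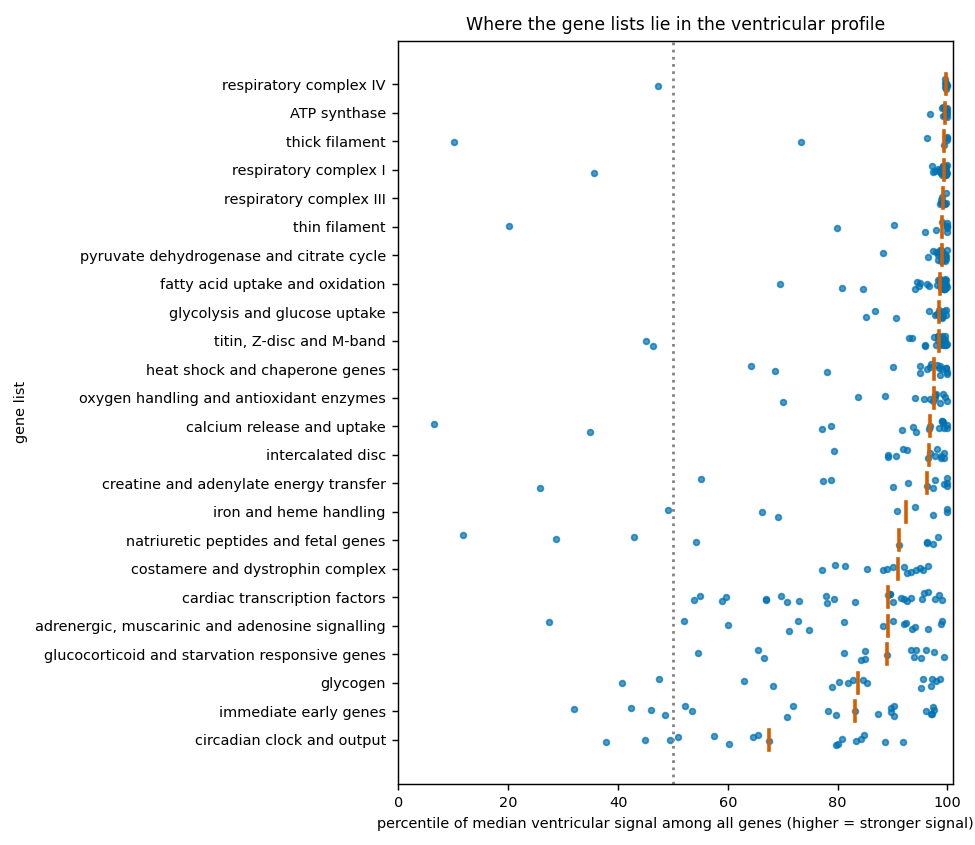
Percentile of the median ventricular signal among all 18193 genes (linear axis, higher is stronger) for each analysed member of 24 gene lists, 1 point per gene, with a bar at the list median and a dotted line at the middle of the scale. Respiratory and sarcomere lists crowd the right edge at list medians from 98.4 to 99.7, while glycogen (83.7), immediate early genes (83.1) and circadian clock genes (67.5) spread further left.

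Within families of related genes 1 member usually led on every array. Of 64 sets of related genes, 45 had every member analysed, and in 43 of these the leader by median signal was also highest on each of the 4 arrays. In 8 sets the leader was the one member above the silent-gene level on all 4 arrays. These orders compare probe sets of different genes and are descriptions with no test. The remaining 2 of the 45 were CaM kinase II and the caveolins, in which the leader was highest on 2 of 4 arrays.

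In the contractile sets the cardiac member led. Myh6 led the 11 myosin heavy chains, followed by Myh7, the slow beta chain, at 1483, 2987, 1572 and 2099 and rank 694. Myl2 led the regulatory light chains, while Myl7, the atrial form, read 10.2, 282, 21.7 and 0.9 and was above the silent-gene level on array 2 alone. Tnni3 led troponin I, and Tnni1, the fetal and slow skeletal form, was at or below the silent-gene level on all 4 arrays with 6.9, 3.3, 17.0 and 1.3. Tnnt2 was followed by Tnnt1, the slow skeletal form, at 115, 177, 149 and 191. Actc1 led the actins, followed by the cytoskeletal Actb at 6268, 4672, 4575 and 4634, and Acta1, the skeletal form, ranked 692 with 1268, 1775, 1914 and 2224. Actb was highest on array 1 and Acta1 on array 4. Atp2a2 was the one SERCA pump above the silent-gene level on all 4 arrays. Pln held the same place against Sln, the sarcolipin of atrial and skeletal muscle, which read 2.9, 44.6, 21.2 and 4.1.

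In the channel and transporter sets most leaders had signals far below the contractile genes. Kcnip2 was the one KChIP above the silent-gene level on all 4 arrays. Kcnd2, the Kv4.2 pore of the transient outward current, led with 295, 338, 438 and 419, above Kcnd3, the Kv4.3 pore, with 108, 149, 135 and 151. Kcnq1, the pore of the slow delayed rectifier, read 183, 342, 401 and 384, and Kcnh2, the rapid one, 154, 206, 105 and 159. Kcnq1 was lowest on array 1. Kcnj5 led the inward rectifiers with 782, 1695, 1193 and 1359, and Kcnj3 followed with 688, 1149.7, 666 and 589.5. Kcnj2, which carries much of the resting inward rectifier current, gave 646, 544, 381 and 414, and when a gene's probe sets were averaged it led this set instead. The sarcolemmal KATP channel subunits Kcnj11 and Abcc9 led their pairs, with 402, 480.1, 457 and 450.3 for Kcnj11 and 3362, 4861, 3309 and 2945 for Abcc9. Cacna2d1 led the alpha2delta subunits with 859, 1137, 1225 and 1267, while Cacna2d2 gave 109, 111, 110.3 and 84.0. Slc8a1 was the one exchanger above the level on all 4 arrays. Fxyd1, phospholemman, led its family with 3476, 3379, 3982 and 3774, and Atp1b1 led the sodium pump beta subunits with 3882, 4352, 6632 and 5609. In the sets with some members not analysed here, Cacna1c, the L-type pore, gave 1166, 1697, 1356 and 1284, Cacnb2 gave 217, 341, 559 and 587, and Kcnk3, a background potassium channel, gave 1643, 1846, 2035 and 1944.

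Metabolic sets led with the heart and muscle forms in several cases and with a broadly expressed form in others. Fabp3 led the fatty acid binding proteins. The next members, Fabp4 and Fabp5, are known from endothelium and fat, and read 6260.4, 3657, 2341 and 2355 and 1609.9, 632, 266 and 226, each highest on array 1. Slc2a4, the insulin-responsive glucose transporter, read 2767, 2933, 3241 and 3471 against 615, 817, 326 and 327 for Slc2a1. Pfkm, Pgam2 and Ckmt2 led phosphofructokinases, phosphoglycerate mutases and creatine kinases. Ldhb, the heart form of lactate dehydrogenase, ranked 36, and Ldha ranked 141 with 3783, 4907, 5711 and 5884. Pygb, named for brain, was above Pygm, the muscle glycogen phosphorylase, on all 4 arrays, with 2639, 3539.7, 4484 and 4522 against 2263, 2714, 3305 and 3621. Cox6a2 and Cox8b, muscle forms of cytochrome oxidase subunits, led their sets. Cox7a2 led Cox7a1 with 7933, 8276, 8927 and 8932 against 7315, 6994, 7334 and 7223, and this order turned when probe sets were averaged. Pdk4, the starvation-induced kinase that shuts pyruvate dehydrogenase, read 6574, 4688, 5737 and 5657. Camk2d led CaM kinase II with 612, 903, 883 and 912, and Camk2a followed with 630, 913, 560.1 and 775. When probe sets were averaged Camk2g led. Cav1, the caveolin of endothelium and many other cells, read 1242, 604, 251 and 221, and Cav3, the muscle caveolin, read 258, 269, 296 and 257. Cav3 led that set without array 1 and without array 2.

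**Figure D3:**
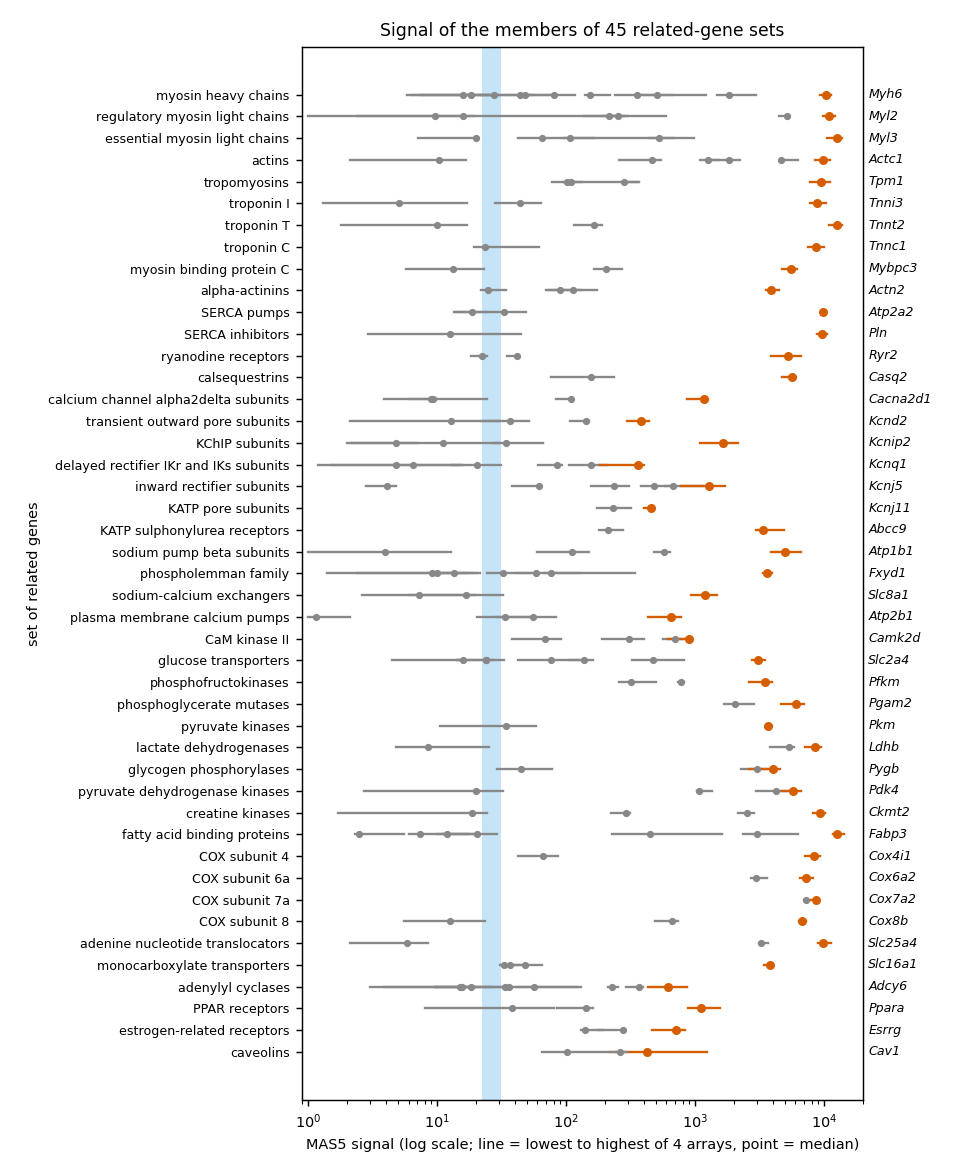
MAS5 signal on a log axis for all members of the 45 sets of related genes with every member analysed, with a point at the median of the 4 ventricular arrays, a line from the lowest to the highest array, the leading gene in orange and named at the right, and the range of the silent-gene level shaded from 22.1 to 31.2. In the top rows the orange point of the contractile genes stands well to the right of the grey ones, while the lines of the caveolins and of CaM kinase II overlap.

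Junction, membrane and regulatory lists had median percentiles from 89.1 to 96.6. The intercalated disc list had 14 of 14 members above the silent-gene level at a median percentile of 96.6, with Dsp, which anchors desmosomes, at 5428, 6839.9, 5812 and 5324 on arrays 1 to 4. Gja1 led the connexins measured, and Gjc1, connexin 45, read 296, 369.7, 216 and 215. Costamere and dystrophin complex genes had 14 of 14 above it at 91.1. Cardiac transcription factors had 27 of 27 above it at 89.2. Smyd1, a muscle histone methyltransferase, read 3804, 4011, 5160.4 and 5969, and Tbx20, a T-box factor, 3451, 2797, 2176 and 2601. Smyd1 was higher on arrays 3 and 4, and Tbx20 was highest on array 1. Ppara, a receptor that switches on fatty acid oxidation, read 1052, 875, 1158 and 1559, and Esrrg, an estrogen-related receptor of oxidative tissue, 465, 611, 842 and 819. Adrenergic, muscarinic and adenosine signalling had 15 of the 16 members analysed above the level at 89.1, and 8 of its 24 listed genes were not analysed here. Adcy6 led the 9 adenylyl cyclases with 429, 630.2, 608 and 858.

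Genes known to respond to cell isolation and handling were also measured. Immediate early genes had 16 of 21 members above the silent-gene level on all 4 arrays at a median percentile of 83.1. Jun read 2011, 2267, 2143 and 2231, Jund 2375, 2375, 2154 and 2189.7 and Dusp1, a stress phosphatase, 2798, 2765, 2009 and 2389. These were close on the 4 arrays, but 14 of the 21 members were highest on array 1. Heat shock and chaperone genes had 18 of 18 above the level at 97.6, led by Cryab with 9719.5, 8582, 9787 and 10138. Glucocorticoid and starvation responsive genes had 15 of 15 above it at 89.0, and 7 of the 15 were highest on array 1. Circadian clock genes lay at 67.5, with 14 of 17 above the level. Dbp, a clock output gene, read 388, 1193, 246 and 482 and was highest on array 2.

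Markers of vessel and stroma cells were mostly above the silent-gene level, and most of the nerve, epicardial, fat and red cell markers listed were not. Of all genes 53.2% were above this level on all 4 arrays. The globin gene Hba-a2, which is on none of the lists, was well above it, with 1086, 1256, 2509.7 and 2541 on arrays 1 to 4. In bulk samples fewer cells of a type and less RNA per cell cannot be told apart. Endothelial markers were above the silent-gene level on all 4 arrays in 14 of 15 genes. Their summed signal was 5730 on array 1, 2729 on array 2, 1890.1 on array 3 and 2260.4 on array 4, against 4094 to 9823 on the Purkinje arrays. Array 1 was highest in 14 of the 15 genes. Cdh5, the VE-cadherin of endothelium, read 596, 256, 153 and 208, and Aqp1, a water channel of capillaries, 805, 340.1, 325 and 347. Fibroblast markers were above the level on all 4 arrays in 8 of 12 genes (66.7%), not far from the share of all genes. Their summed signals were 3227, 2085, 1887 and 2226 on arrays 1 to 4. Dcn, decorin, read 1231, 850.1, 512 and 566, and Col1a2 read 231, 159, 205 and 217. Smooth muscle and pericyte markers were above it in 11 of 12 genes. Their sum ran from 8547 to 11415, but Des and Abcc9, which myocytes use too, made up much of it. Rgs5, a pericyte gene, read 3398, 1896, 928 and 1136 and was highest on array 1. Cnn1, a defining gene of contractile smooth muscle, was at or below the level on all 4 arrays.

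Leukocyte markers were above the silent-gene level on all 4 arrays in 5 of 13 genes (38.5%), against 53.2% of all genes. Their sums ran from 553 to 863. Lyz2, a macrophage lysozyme, read 235, 144, 187 and 184. Itgam and Adgre1, also macrophage genes, were at or below the level on every array, as was Ptprc, the common leukocyte antigen, with 3.0, 12.4, 4.1 and 10.9. The 4 erythroid genes analysed were at or below the level on every array. Of 8 neuron and Schwann cell genes 0 were above it on all 4 arrays and 6 were at or below it on every array, and of 5 epicardial and adipocyte genes these counts were 0 and 3. Sox10, a Schwann cell factor, read 19.5, 18.4, 32.1 and 20.0.

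Genes of the conduction system and the atrium mark the nearest relatives with which a ventricular sort can be compared. Conduction markers were above the silent-gene level on all 4 arrays in 3 of 10 genes, Irx3, Tbx3 and Id2, against 53.2% of all genes. The list was chosen with earlier results of these data known, so this count is a description and no independent evidence. Irx3, a factor of the ventricular conduction system, read 306, 335, 258 and 296. Cntn2, whose EGFP reporter marks Purkinje cells in these mice, was at or below the level on all 4 arrays with 2.9, 13.3, 11.7 and 24.0. Gja5, which encodes connexin 40 of the Purkinje fibres, read 43.4, 43.6, 30.4 and 21.3, above the level on 3 arrays. Summed conduction markers were 512 to 622 on the ventricular arrays and 2137 to 9810 on the Purkinje arrays. Atrial markers were above the level on all 4 arrays in 6 of 9 genes (66.7%), not far from the share of all genes. Nppa, the atrial natriuretic peptide, read 1000.2, 746, 942 and 571. Myl4, the atrial essential light chain, read 81.5, 679, 48.2 and 42.3, and Myl7 was likewise highest on array 2. Of the 9 atrial markers 5 were highest on array 2, and Bmp10, a defining gene of the right atrium, was at or below the level on every array with 1.7, 2.0, 2.7 and 3.2.

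**Figure D4:**
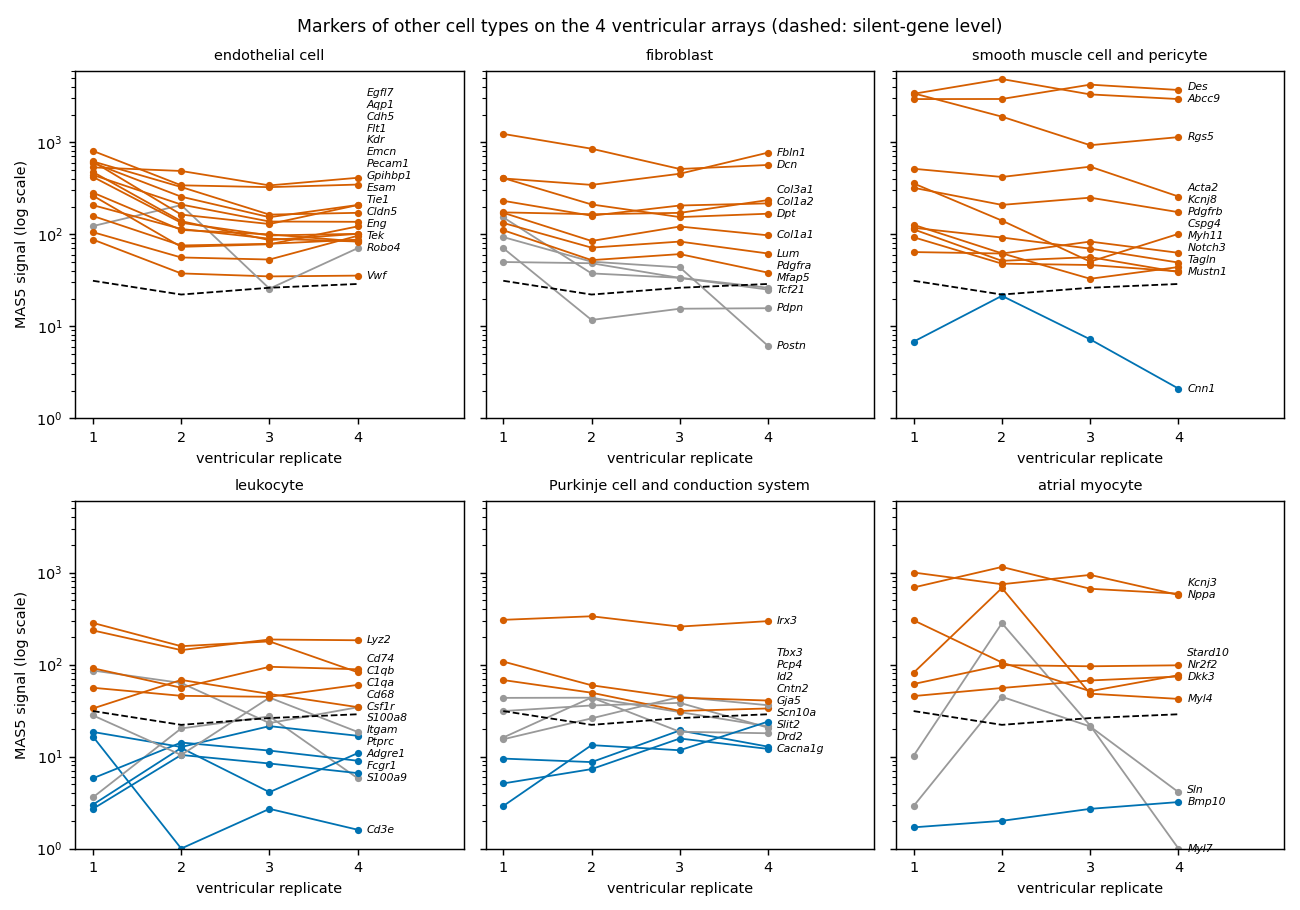
MAS5 signal on a log axis for markers of 6 other cell types on the 4 ventricular arrays, 1 line per gene, with orange for genes above the silent-gene level on all 4 arrays, grey for 1 to 3 arrays, blue for none, and the dashed line at that level. Endothelial lines start highest at replicate 1, where Aqp1 reads 805, and Myl4 and Myl7 peak at replicate 2 with 678.5 and 281.5.

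The spread over the 4 arrays differed by gene even at high signal. Of the 1000 genes of highest signal, Rgs5, Ddit4, Ccnd2, Dnaja1, B2m, Ppp1r14c, Fabp4, Mrpl33, Ppif and Mt1 had the widest ranges. Ddit4, a gene of stress and glucocorticoid response, read 929.7, 852, 3376 and 2098 and was highest on array 3. Rgs5, Fabp4, B2m and Mt1 were highest on array 1, with B2m, a component of the class I antigen complex, at 3094, 1686, 1089 and 1318 and Mt1, a metallothionein, at 3658, 2039.9, 1509 and 1501. Ccnd2, a D-type cyclin, read 1790.3, 2083, 964 and 674, higher on arrays 1 and 2. The narrowest ranges were those of Slc25a34, Cct4, Laptm4a, Hnrnph1, Sh3glb1, Ndufa3, Mpc1, Sh3bgr, Pde4dip and Eif5a. Slc25a34, a mitochondrial carrier, read 1543, 1521, 1531 and 1544, and Mpc1, which brings pyruvate into mitochondria, 3414, 3543, 3493 and 3538.

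Against the Purkinje arrays, ventricular myocytes were higher in some genes of fatty acid and pyruvate oxidation, glycogen and other energy lists. They were lower in most conduction markers and in some atrial, vessel and stroma markers, while the sarcomere lists gave no call. The test was limma on log2 signals with Benjamini-Hochberg adjustment over 12318 genes, with the contrast ventricular minus Purkinje. It called 126 genes higher (1.02%) and 239 lower (1.94%) in ventricular myocytes. Same-numbered arrays were taken to come from 1 heart, a pairing that this main fit and the fits that leave out an array do not use. With the replicate number as a block the counts were 921 (7.48%) and 1187 (9.64%). Without regard to a test, the ventricular values lay wholly above the Purkinje values in 790 genes (6.41%) and wholly below in 770 (6.25%), and 125 genes (1.01%) were both called higher and free of overlap. Another scaling moved the counts of calls. The median difference over all genes was -0.06 (log2) as deposited, 0.06 after quantile normalization and 0.35 after centring each array on its median, with 40 higher and 122 lower under the former and 2385 higher and 222 lower under the latter. Without ventricular array 1, 2, 3 or 4 the higher calls were 310, 11, 3 and 2 and the lower calls 647, 90, 66 and 65. Without Purkinje array 1, 2, 3 or 4 they were 233, 28, 1 and 28 higher and 302, 95, 37 and 137 lower.

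Of the 5 ventricular markers, 2 were called higher, Scn4b and Kcnip2, where 1.02% of all genes were. The markers were chosen with earlier results of these data known, so this count describes the sort and is no independent evidence. Kcnip2 read 1156, 1089, 2122 and 2155 on the ventricular arrays and 713, 533, 661 and 678 on the Purkinje arrays. The groups did not overlap, and the log2 difference was 1.27 ± 0.23 (SE, limma adjusted p = 0.0208). Scn4b read 657, 550.3, 278 and 164 on the Purkinje arrays, below every ventricular value, a log2 difference of 1.60 ± 0.37 (limma adjusted p = 0.0453). Gja1 read 4959, 4925, 5305 and 5273 on the Purkinje arrays, and its log2 difference of 0.26 ± 0.09 had a limma adjusted p of 0.14, or 0.0459 with the replicate block. For Myh6 and Myl2 the Purkinje values were 9562, 10505, 9058 and 9557 and 10648, 11165, 9999 and 10461, the groups overlapped, and the limma adjusted p was 0.546 and 0.784. The count of 2 stayed at 2 without ventricular array 1 or Purkinje array 1, was 1 without ventricular array 2 or Purkinje array 4, and was 0 without ventricular array 3 or 4 or Purkinje array 2 or 3.

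In the 24 family lists 22 genes were called higher and 6 lower. Of all genes tested 1.02% were called higher and 1.94% lower. Fatty acid uptake and oxidation had 7 of 27 tested members higher and 0 lower, with a list median of 0.38 (log2) against -0.06 over all genes. Quantile normalization gave a list median of 0.22, and median centring gave 0.78. Cpt2, which releases fatty acids from carnitine inside mitochondria, read 1508, 1839, 2012 and 1869 on the ventricular and 1185, 1059.5, 1143 and 966 on the Purkinje arrays, a log2 difference of 0.73 ± 0.13 (limma adjusted p = 0.0178). Acadm, the medium-chain dehydrogenase, read 5086, 5698, 5812 and 6159.5 against 4446, 4291, 3953 and 3849.6, a difference of 0.46 ± 0.10 (limma adjusted p = 0.0331). Neither gene overlapped between the groups. Eci1, Eci2, Echs1 and Decr1, which handle later steps and unsaturated chains, were called too, at 0.68, 0.70, 0.66 and 0.52. The pyruvate dehydrogenase and citrate cycle list had 4 of 24 higher, namely Dld, Pdhx, Mpc1 and Sucla2, with a list median of 0.31. Pdhx, a structural part of pyruvate dehydrogenase, read 502, 646, 618 and 631 against 329.7, 373, 309 and 249, a difference of 0.93 ± 0.17 (limma adjusted p = 0.0194). When probe sets were averaged Dld came to -0.17 and Sucla2 to -0.61.

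Respiratory complex III had 2 of 10 members called higher, against 1.02% of all genes, and a list median of 0.32. Uqcrc2, a core subunit, read 4531, 5145, 5316 and 5423 against 3876, 3998, 3692 and 3737, with no overlap, a difference of 0.41 ± 0.09 (limma adjusted p = 0.0407). Uqcrfs1, the iron-sulfur subunit, was called at 0.45. Complex I had 0 of 33 called by limma, with a list median of 0.23, complex IV 0 of 9 at 0.11 and ATP synthase 0 of 16 at 0.14. At an unadjusted p under 0.05 they had 16, 0 and 3 members higher and 0 lower each, where 9.2% of all 12318 genes were higher and 12.8% lower at that threshold. Glycogen had 2 of 16 higher, Gbe1 and Ugp2, and a list median of 0.48. Glycolysis and glucose uptake had 1 of 16 higher, Slc16a1, the lactate and pyruvate transporter, and a list median of 0.33. After quantile normalization the medians were 0.15 for the citrate cycle, 0.15 for complex III, 0.11 for complex I, 0.32 for glycogen and 0.14 for glycolysis. Complex IV and ATP synthase came to 0.02 and 0.04, where the median over all genes was 0.06. Median centring gave 0.71, 0.72, 0.63, 0.88, 0.73, 0.52 and 0.54 in the same order, against 0.35 over all genes. At an unadjusted limma p under 0.05 the glycolysis list had 11 higher and 0 lower, and the fatty acid list 16 and 1. Other single calls upward were Ckm, the muscle creatine kinase, Jph2, Hspb8 and Pde3a, a phosphodiesterase of cyclic AMP. Gpx4 and Prdx3, peroxide-removing enzymes, were higher and Gpx3, a secreted one, was lower at -0.82. With the replicate block 16 of 27 fatty acid, 13 of 24 citrate cycle and 12 of 33 complex I genes were called higher. So were 5 of 10 complex III, 10 of 16 glycogen and 7 of 16 glycolysis genes, against 7.48% of all genes. For complex IV it was 0 of 9 and for ATP synthase 1 of 16.

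Sarcomere lists gave no limma call in either direction, over 6 thick filament, 11 thin filament and 22 titin, Z-disc and M-band genes tested. Their median differences were 0.10, 0.11 and 0.22 (log2). At an unadjusted p under 0.05 there were 2, 2 and 8 higher and 1, 1 and 0 lower, to be read against the same 9.2% and 12.8% of all genes. With the replicate block 1, 2 and 4 of them were called higher and 1, 1 and 0 lower, against 7.48% and 9.64% of all genes. The contractile sets of related genes, in the main fit, had Myl9, Myl1, Tpm3 and Acta2 lower, at -2.50, -1.61, -1.30 and -2.15, and no member higher. In the channel, connexin and sodium pump sets Cacna1c was higher at 0.59, besides Scn4b and Kcnip2. Lower there were Cacna2d2, Gjc1 and Atp1b2, at -2.40, -1.43 and -1.71, and Cacna1g, Cacna1h, Scn10a, Gja5 and Kcnj8. Over all genes 1.02% were called higher and 1.94% lower. Of intercalated disc genes 0 of 14 were called, at a list median of 0.08 that was -0.07 after quantile normalization, and of costamere genes 0 of 14, at 0.09 and -0.04. At an unadjusted p under 0.05 these were 3 higher and 1 lower, and 1 higher and 2 lower. With the block they were 4 higher and 1 lower, and 1 higher and 2 lower. Fhl2, a LIM protein gene of muscle, was among the 12 genes of highest signal that were called higher. It read 5154, 4646, 5776 and 5646 against 4428, 3274, 2611 and 2156, a difference of 0.81 ± 0.19 (limma adjusted p = 0.0453). Lrrc2 had the largest difference of those 12, with 2689, 3181, 3723 and 3738 against 2130.1, 1587, 1518 and 1623, or 0.96 ± 0.15 (limma adjusted p = 0.0108). Vldlr, the very low density lipoprotein receptor, and Coq9, a gene of ubiquinone synthesis, were called at 0.69 and 0.54.

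The count of 22 higher family genes, from the fit without the block, changed with the arrays used. No array was left out with the block in place. The count was 105 with the replicate block. Quantile normalization left 4, and median centring gave 231. Without ventricular array 1 it was 55, and without array 2, 3 or 4 it was 0. Without Purkinje array 1, 2, 3 or 4 it was 30, 3, 0 and 3. The counts of all genes at an unadjusted limma p under 0.05 in those fits ranged from 2045 to 2966. The 7 fatty acid calls became 12 without ventricular array 1, 0 without array 2, 3 or 4, and 8, 1, 0 and 1 without Purkinje array 1, 2, 3 or 4. The 4 citrate cycle calls became 11 without ventricular array 1, 0 without array 2, 3 or 4, and 3, 1, 0 and 1 without Purkinje array 1, 2, 3 or 4. A set of 64 genes held the ventricular markers and every gene of the naming rule that was called, some of them not printed here. Of these, 24, 19 and 20 kept their call or lack of one without ventricular array 2, 3 or 4, and 64 did without array 1. Without Purkinje array 1, 2, 3 or 4 these numbers were 53, 24, 16 and 28.

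Ventricular myocytes were lower in 8 of 10 conduction markers. The list was chosen with earlier results of these data known, so this count describes the sort and is no independent evidence, and nothing is read from it against the 1.94% of all genes called lower. Cntn2 is the gene of the reporter that marks Purkinje cells, so its difference is no independent finding. Gja5 read 266, 705, 1276 and 1025 on the Purkinje arrays, all above the ventricular ones, a log2 difference of -4.40 ± 0.44 (limma adjusted p = 0.00145). Leaving out an array kept 6 to 8 of the 10 called. Nppa read 1000.2, 746, 942 and 571 on the ventricular and 3504, 5454, 8348 and 10308 on the Purkinje arrays, a difference of -3.00 ± 0.30 (limma adjusted p = 0.00145). Of 8 atrial markers tested 2 were called lower, Nppa and Stard10, and 6 did not pass, with 6 lower under the replicate block. Tbx5 and Irx5, factors of the conduction system among other sites, were lower at -1.44 and -1.63. Of 21 immediate early genes 14 were lower with the block, against 9.64% of all genes. Without the block 1 was, Klf2, at a list median of -0.55. That count was 6 without ventricular array 1 and 0 without any one of the other 7 arrays.

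Endothelial markers were lower on the ventricular arrays in 3 of 15 genes, Cdh5, Egfl7 and Aqp1. With the replicate block 14 of 15 were called, and the list median was -1.23. Of all genes 1.94% were called lower in the main fit and 9.64% with the block. Egfl7 was tested on another probe set than that of its profile. On the profile probe set the groups overlapped, with 533, 487, 339.5 and 411 against 673, 668, 537 and 477. Aqp1 read 805, 340.1, 325 and 347 against 1193, 1044, 899 and 898, a difference of -1.26 ± 0.27 (limma adjusted p = 0.0346). Without ventricular array 1 the endothelial count was 9. Without ventricular array 2, 3 or 4, or Purkinje array 1, 2 or 3, it was 0, and without Purkinje array 4 it was 1. Fibroblast markers were lower in 2 of 12 genes, Col1a2 and Col3a1, or 8 with the block and 8 without ventricular array 1. Without ventricular array 2, 3 or 4, or Purkinje array 3 or 4, 1 was called, without Purkinje array 1, 3, and without Purkinje array 2, 2. Smooth muscle and pericyte markers were lower in 3 of 11 genes, Acta2, Cspg4 and Kcnj8, or 9 with the block and 7 without ventricular array 1. The part of these cell markers and of the Gapdh probe ratio in the differences between the groups was not tested.

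**Figure D5:**
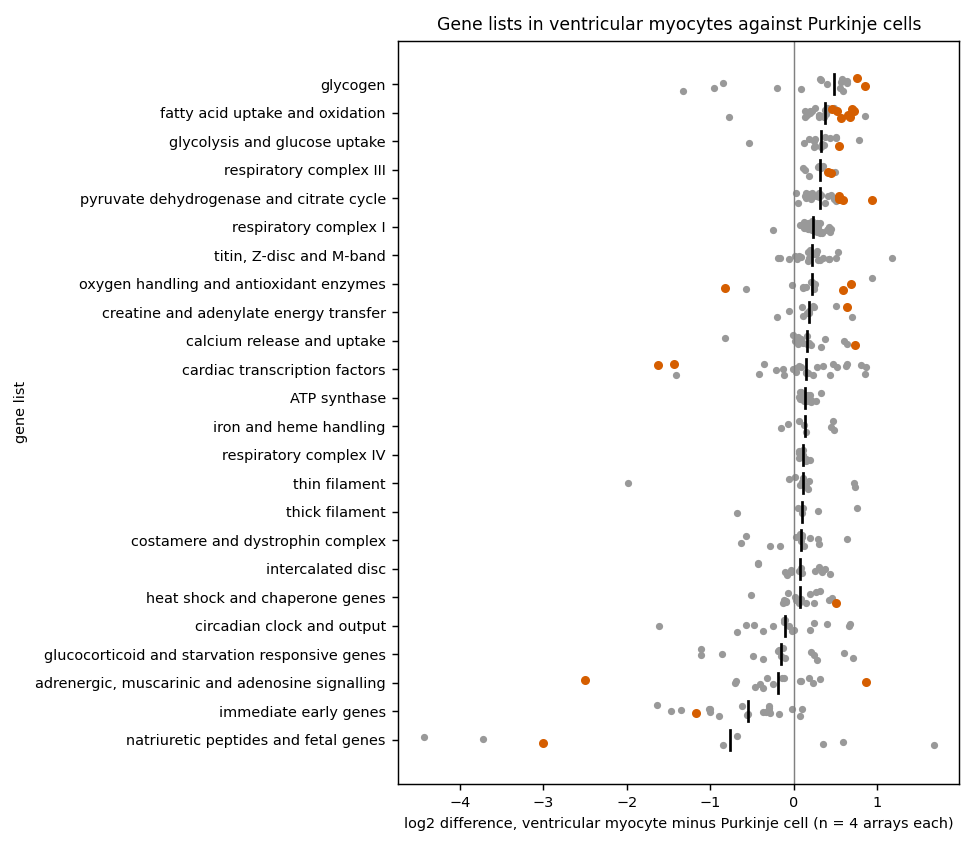
Log2 difference, ventricular myocyte minus Purkinje cell, for each tested member of 24 gene lists (linear axis, 4 arrays per group), with 1 point per gene, orange where the limma adjusted p was under 0.05, and a bar at the list median. Fatty acid, citrate cycle and glycogen lists have medians of 0.38, 0.31 and 0.48, and natriuretic peptides and fetal genes have the lowest median at -0.76.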

How the data were processed

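RNA of 4 ventricular and 4 Purkinje samples was extracted with PicoPure, amplified with Nugen Ovation Pico WTA and hybridised to Affymetrix arrays, per the labels. The authors deposited linear intensity values. The submitters' processing notes name MAS5, and the values show a trimmed mean of 150.001 on every array. Their table also holds a deposited ratio of group means and an unadjusted p-value, neither used here. Of 45101 probe sets, 34945 named 1 gene and were used, 932 named several, 9160 none and 64 were controls. Symbols came from the platform annotation, and 0 changed on updating to GRCm38.p6.

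Signals of 0 (7 on the ventricular arrays) were set to 0.1 before log2, and no further scaling was applied. For the test each gene took the probe set of highest mean log2 over the 8 arrays together, which does not favour the ventricular ones. In 326 tested genes this differs from the probe set of the profile. Genes with a mean above the 40th percentile (log2 4.31, a signal of 19.9) were tested two-sided with limma 3.58.1 (R 4.3.3), by eBayes with a variance trend, at an adjusted p of 0.05. Tables were made with pandas 2.3.3. The test was checked on simulated data.

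Replicate numbers were taken to pair the arrays, since the design gives 1 sample of each cell type per heart. The titles give only the cell type and a number, so this pairing is an assumption. Deviations from the group means correlated at 0.381, 0.234, 0.267 and 0.275 between same-numbered arrays. Arrays numbered 1 and 2, and those numbered 3 and 4, also correlated across numbers, at 0.197 and 0.09 and at 0.225 and 0.21. The members and gene lists were chosen with earlier results of these data known. Named genes are the 5 markers, the 25 of highest signal, the leading members of each list or set, up to 3 high and 2 silent markers of each other cell type, called list members (up to 4 a list), the 12 called higher of highest signal with no overlap, and the 10 widest and 10 narrowest ranges of the first 1000. Myl7, Tnni1, Ptprc and Hba-a2 were named after their values were seen. Alternatives were the replicate block, quantile normalization, median centring, other filters, 16 added before log2, other probe set choices, no trend, other silent-gene levels, leaving out each array, and replicates 1 and 2 or 3 and 4 alone. Members of some lists were not analysed here.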

Additional observations from a re-analysis of the deposited data

Results flagged for a closer look

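Of 316 named genes, 17 (5.38%) had 1 ventricular array far from the other 3 on the log2 scale, with the gap to the nearest array divided by the range above Dixon's critical value for 4 samples. Chance alone flags about 1 gene in 20, so this count is no pattern by itself.

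Array 1 was the distant one in 8 genes. It was highest for Aqp1 (ratio 0.929), with 805, 340.1, 325 and 347 on arrays 1 to 4, for Actb (0.934), with 6268, 4672, 4575 and 4634, and for the glycogen branching gene Gbe1 (0.838), with 409.7, 320.2, 314 and 305. It was lowest for the homeodomain gene Hopx (0.901), with 2168, 3582, 3598 and 3785, for Camk2d (0.918), with 612, 903, 883 and 912, and for the heme gene Fech (0.847), with 896, 1226, 1239 and 1298. It was also lowest for the atrial marker Stard10 (0.939), with 61.4, 98.5, 95.7 and 98.1, and for Hcn3 (0.971), which read 1.3, 5.1, 4.9 and 5.0 and was at or below the silent-gene level throughout.

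Array 2 was the distant one in 4 genes. It was lowest for the receptor gene Esrra (0.974), with 277, 178, 278 and 275, and for the antigen presentation gene Cd74 (0.881), with 91.2, 56.0, 94.5 and 88.8. It was highest for Tpm2 (0.899), with 278, 364, 282 and 285, and for the Purkinje marker Slit2 (0.856), with 16.1, 43.8, 18.6 and 17.9.

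Array 3 was highest for the pericyte marker Cspg4 (0.878), with 64.0, 61.7, 83.2 and 62.8, and for Sox10 (0.85), with 19.5, 18.4, 32.1 and 20.0. Array 4 was highest for Col3a1 (0.87), with 173, 165, 171 and 235, and lowest for Ndufc1 (0.9), with 9959.8, 9930.3, 9912 and 9495, and Cacna2d2 (0.933), with 109, 111, 110.3 and 84.0.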

How the results depend on the processing

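Ranks and medians on the ventricular arrays depended most on whether the probe sets of a gene were averaged. The count of genes above the silent-gene level on all 4 arrays, 9678, stayed between 8945 and 10652 under the other levels, array counts and probe sets tried. Of the 25 leading genes 11 remained when probe sets were averaged and 21 or more under each other choice, and the leader of 42 to 45 of the 45 complete sets remained. The medians of 316 named genes moved beyond 1 SD in 153 when probe sets were averaged, in 24 without the probe sets marked as able to cross-hybridise, and in 1 or 0 without any one array.

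The calls against Purkinje cells depended strongly on the fit. Ventricular higher and lower calls, 126 and 239 in all, were 921 and 1187 with the replicate block, 40 and 122 after quantile normalization, and 9 and 117 without the variance trend. Within replicates 1 and 2 they were 0 and 3 by limma, with 1544 genes at an unadjusted p under 0.05, and within replicates 3 and 4 they were 813 and 766. Median centring gave 2385 higher and no filter 73. Higher calls were 34.5% of all calls, but 24.7% after quantile normalization, 91.5% after median centring, 43.7% with the block, 7.14% without the trend and 51.5% within replicates 3 and 4. Leaving out 1 array, without the block, gave 1 to 310 higher and 37 to 647 lower. Family genes called, 22 higher and 6 lower, were 105 and 36 with the replicate block, 1 and 2 without the trend, 0 and 1 within replicates 1 and 2, and 180 and 30 within replicates 3 and 4. The higher count was 4 after quantile normalization, 231 after median centring and 10 without a filter. Leaving out 1 array gave 0 to 55 higher and 1 to 15 lower.

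Of the 64 genes that were ventricular markers or named genes with a call, the block changed the call of 1, Gja1, and otherwise no call. Quantile normalization ended 34 calls, no trend 43, no filter 22 and the mean of probe sets 15, besides 2 that turned direction. The direction turned for Myh6 (-0.03) and Myl2 (-0.12) within replicates 1 and 2, and for Dld (-0.17) and Sucla2 (-0.61) with the mean of probe sets. These 4 did not pass the test there, and the cause was not tested. A signal near the silent-gene level has no firm order, and the level limits what can be said of traces.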

Other observations

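Globin signal did not follow the other red cell genes. Hba-a2, an alpha globin gene, ranked 672, with 1086, 1256, 2509.7 and 2541 on ventricular arrays 1 to 4 and 1228, 1413, 2423 and 2778 on the Purkinje arrays. Arrays 3 and 4 were higher than arrays 1 and 2 in both cell types. The 4 erythroid markers analysed, Slc4a1, Epb42, Hba-a1 and Alas2, were at or below the silent-gene level on every ventricular array. Hba-a2 was picked after its values were seen, and its log2 difference of -0.11 had a limma adjusted p of 0.888. Globin genes have near-identical copies, so the source of this signal is uncertain.

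Natriuretic peptide genes differed in spread and in place. Nppb, the B-type peptide, ranked 483 with 2774, 1216, 2525 and 2374 and was lowest on array 2, while Nppa ranked 1600. Ankrd1, a stretch-responsive gene, ranked 332 with 2471, 2902, 3692 and 3891. Atp2a1, the skeletal SERCA1 pump, had a median of 33.0, close to the silent-gene level.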
